A study of Mus musculus with 9 samples.

Results

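Differentiation was examined in control cells of a Yap1 knockdown experiment. The cells are J1, mouse embryonic stem (ES) cells from the strain 129S4/SvJae, taken at passages 5 to 7. The library labelled dESC_control, from differentiated ES cells, was set against the library labelled Control, from undifferentiated ES cells, and these are 2 of the 9 libraries of the study. Both are labelled as controls of a Yap1 knockdown, and neither is labelled for any change of Yap1. How the cells were differentiated, for how long, and which construct the control cells carried were not given in the sources used here. Genes entered the comparison when they stood at 1 FPKM or more in either library. FPKM counts sequenced fragments of a transcript, divided by its length in kilobases and by the mapped fragments of the library. After blank rows, symbols that a spreadsheet had turned into dates and small RNA rows were left out, 12325 of 18504 genes were compared.

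Each state has 1 library, so the difference between the pair has no replicate check and carries no p-value. A gene was called higher or lower when log2(FPKM + 1) differed by 1 or more (2-fold), a scale that understates the change of genes with low levels. A gene under 1 FPKM in Control could enter only through dESC_control and could not be called lower by this rule. That holds for members of many lists below. For a measure of spread, dESC_control was also tested against 3 undifferentiated control libraries. These are BirA, the control of a Yap1 overexpression library, ESC, the control of Yap1 knockout libraries, and Control itself. The 3 come from 3 experiments, so their spread may hold construct and batch differences, and nothing in the labels says that they are separate cultures. The lone differentiated library was assumed to vary like them. The knockdown libraries Yap1_KD and dESC_Yap1_KD, which share no library with this pair, are set beside it. Where 3 FPKM values stand against 1 below, they are BirA, ESC and Control, in that order, against dESC_control.

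ES cells in culture keep a naive pluripotent state through a network of transcription factors that includes Nanog, Esrrb and Klf4 and is held up by the cytokine LIF. On leaving that state, cells pass through a formative state like the epiblast of the early embryo, marked by Fgf5 and Dnmt3b. In the embryo, Wnt, Nodal and BMP signals then make posterior epiblast cells form the primitive streak, which expresses the transcription factor Brachyury (gene T) and gives rise to mesoderm and endoderm.

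In dESC_control 1590 genes exceeded Control by 2-fold or more (12.9% of the genes compared) and 1214 fell short of it by as much (9.85%). The median log2 ratio of all genes compared was 0.04, and it was 0.06 over the 9099 genes at 5 FPKM or more. The larger differences were mostly increases: 125 genes were higher by 8-fold or more and 34 lower by as much, and 46 and 6 passed 16-fold. The 13 genes that were at least 32-fold higher included the actin-binding protein gene Tagln, the matrix protein Thbs1, the skeletal muscle actin Acta1, the guanylate-binding proteins Gbp2 and Gbp2b, the keratins Krt8 and Krt18, the streak factors T and Sp5, the matricellular protein Cyr61, the growth factor binding protein Igfbp3 and the ligand Wnt6. Of the 6 genes at least 16-fold lower, Txnip, a redox and glucose uptake regulator, stood at 238 FPKM in Control and 4.29 FPKM in dESC_control, Ndufa4l2, Rpl39l, Khdc3 and Bnip3 followed, and Tpm3 was listed at 0 FPKM in dESC_control. Tpm3 stood at 62.9 FPKM in Control and 87.4 FPKM in the differentiated knockdown, and a 0 of an abundant gene can be a failed estimate, so no fold is given for it.

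**Figure D1:**
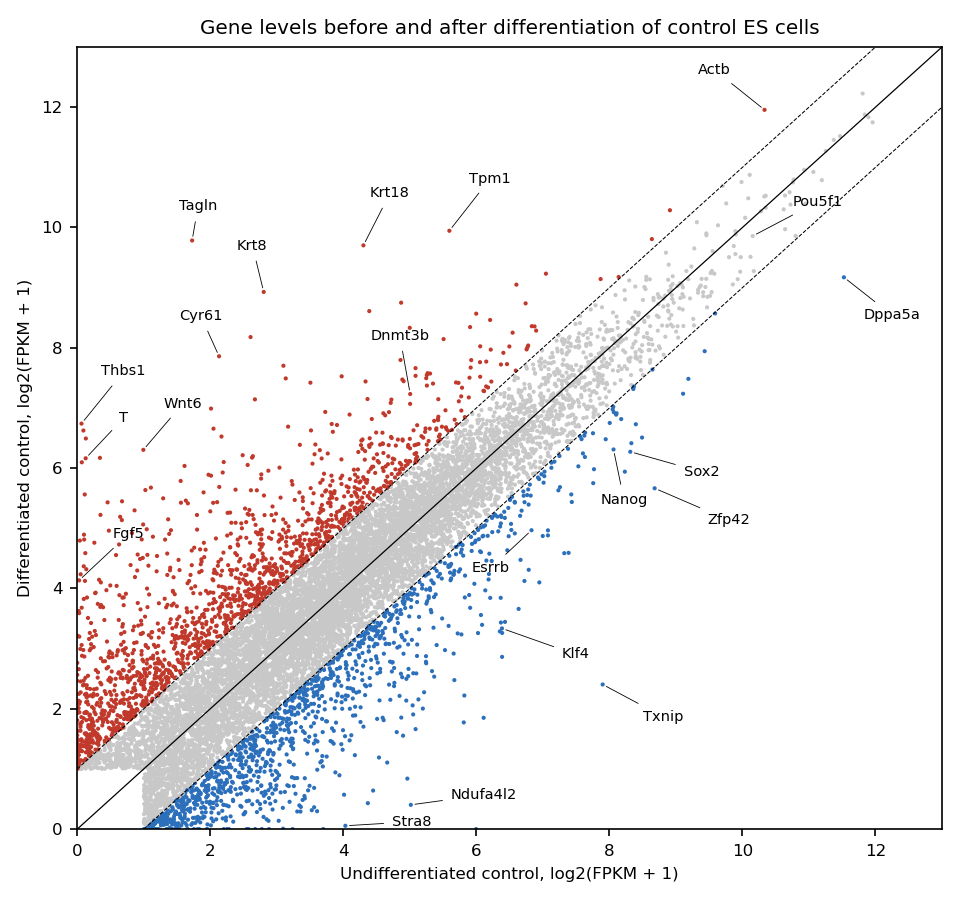
Each point is 1 of the 12325 genes, placed by its level in Control (horizontal axis) and dESC_control (vertical axis), both as log2(FPKM + 1). The solid line marks equal levels and the dashed lines a 2-fold difference, with 1590 genes above (red) and 1214 below (blue); Pou5f1 lies between the lines while Tagln, Krt8 and T lie far above them.

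The differences held against the other control libraries to different degrees. Of the 1590 higher genes, 1572 (98.9%) stood above BirA, ESC and Control alike, and 1055 (66.4%) were at least 2-fold above each. Of the 1214 lower genes, 1156 (95.2%) stood below all 3, and 533 (43.9%) were at least 2-fold below each. With ESC in the place of Control 794 genes were at least 2-fold lower. The undifferentiated controls differed from each other in fewer genes: Control was at least 2-fold above ESC in 310 genes (2.65%) and below it in 200 (1.71%), and above BirA in 99 (0.849%) and below it in 31 (0.266%). In limma, adjusted by Benjamini-Hochberg over 12432 genes, 1426 were higher (11.5%) and 842 lower (6.77%) in dESC_control than in the 3 controls, and 1203 and 665 of these were also called by the 2-fold rule. That test has 2 residual degrees of freedom. Without BirA it called 635 and 252 genes, and without ESC 1991 and 1431. Estimated from the steps between low FPKM values, the depth was 22.6 M (mega) fragments for Control and 19.3 M for dESC_control, so 1 FPKM corresponded to 45.2 and 38.6 fragments of a 2 kb transcript. BirA and ESC had 14.7 M and 14.9 M.

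The core pluripotency factor Pou5f1 (Oct4) stayed abundant. It stood at 1260, 1240 and 1138 FPKM in BirA, ESC and Control and 927 FPKM in dESC_control, a log2 ratio over Control of -0.30, and the 3 controls did not differ from it beyond their spread (limma log2 difference -0.39, SE 0.23, Benjamini-Hochberg adjusted p = 0.29). Its partner Sox2 stood at 393, 357 and 317 FPKM in BirA, ESC and Control and 76.3 FPKM in dESC_control, below all 3 controls (limma log2 difference -2.20, SE 0.21, Benjamini-Hochberg adjusted p = 0.00294). The factor Nanog was also below all 3, with 207, 226 and 266 against 78.3 FPKM (limma log2 difference -1.55, SE 0.22, Benjamini-Hochberg adjusted p = 0.00889). Of the 18 core pluripotency genes compared, 6 were at least 2-fold lower and 1 was higher, with a median log2 ratio of -0.38; limma called the same number lower and 0 higher. The others among the 6 were Fgf4, the fibroblast growth factor that ES cells secrete (81.6, 78.9 and 81.5 against 13.4 FPKM), the oocyte and ES cell protein Dppa5a (2990, 1764 and 2947 against 576 FPKM), the Nodal co-receptor Tdgf1 (259, 168 and 321 against 84.3 FPKM) and Tdh, the threonine dehydrogenase on which mouse ES cells depend (348, 300.4 and 215 against 52.8 FPKM). The 1 higher gene was Lin28a, an RNA-binding protein that blocks let-7 microRNAs, at 147, 157 and 87.04 against 211 FPKM. Lin28a lay above all 3 controls but not beyond their spread (limma log2 difference 0.74, SE 0.36, Benjamini-Hochberg adjusted p = 0.216). The other 11 lay within 2-fold of Control, among them Utf1 (log2 ratio -0.10), Gdf3 (0.00), Trim28 (-0.05), L1td1 (0.08), Ncl (0.11) and Sall4 (0.87). Dppa4 (-0.65), Rif1 (-0.67) and Dppa2 (-0.46) were on the low side of Control. Control was the lowest of the 3 controls for Utf1 (607, 777 and 367 against 343 FPKM) and Trim28 (815, 1137 and 581.5 against 563 FPKM). The same held for Gdf3, L1td1, Ncl and Sall4 (96.4, 123 and 50.7 against 93.2 FPKM). The median log2 ratio of the 18 genes was -0.97 over ESC and -0.62 over BirA. Of the 18, 13 lay below all 3 controls and 1 above, shares that were not counted over all genes.

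Genes of the naive state were lower as a group. Of 20 genes, 16 were at least 2-fold lower and 0 higher, with a median log2 ratio of -1.77 over Control, -2.57 over ESC and -2.44 over BirA. By limma 16 were lower. The Krüppel-like factor Klf4 stood at 92.2, 111 and 82.5 FPKM in BirA, ESC and Control and 9.097 FPKM in dESC_control, 11.02% of Control (limma log2 difference -3.24, SE 0.23, Benjamini-Hochberg adjusted p = 0.00153). The zinc finger gene Zfp42 (Rex1), a classical reporter of the naive state, stood at 339, 356 and 409 FPKM in BirA, ESC and Control and 49.7 FPKM in dESC_control (limma log2 difference -2.86, SE 0.21, Benjamini-Hochberg adjusted p = 0.00156). For both, the differentiated library lay far below the lowest control. The orphan receptor Esrrb was at 202, 205 and 113 against 30.3 FPKM, the DNA demethylase Tet2 at 14.8, 19.4 and 17.04 against 1.34 FPKM and the kinase cofactor Tcl1 at 56.7, 45.2 and 40.2 against 4.79 FPKM. The factors Tfcp2l1 (55.9 to 17.6 FPKM from Control to dESC_control), Klf2 (149 to 48.5 FPKM), Nr0b1 (38.8 to 11.5 FPKM), Nr5a2 (20.3 to 6.03 FPKM) and Prdm14 (9.97 to 1.39 FPKM) were lower too. So were the F-box protein Fbxo15 (66.9 to 9.52 FPKM), the secreted phosphoprotein Spp1 (166 to 23.1 FPKM), the adhesion molecule Pecam1 (32.1 to 5.02 FPKM), the ligand Bmp4 (15.7 to 5.06 FPKM), the LIF feedback inhibitor Socs3 (36.9 to 5.87 FPKM) and Dppa3 (3.91 to 0.558 FPKM). The 4 that stayed within 2-fold of Control were Klf5 (181, 223 and 111 against 141 FPKM), Mycn (120.2, 104 and 53.99 against 81.7 FPKM), Tbx3 (44.8, 68.8 and 37.1 against 27.03 FPKM) and Stat3 (30.4, 31.9 and 20.99 against 13.3 FPKM). The Klf5 and Mycn levels of dESC_control lay within the range of the controls, and those of the other 18 naive genes below it.

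Genes of the formative and primed epiblast were higher in part. Of 18, 10 were at least 2-fold higher and 0 lower, with a median log2 ratio of 1.79, and limma called 8 higher. The growth factor Fgf5, the marker that separates epiblast from naive cells, stood at 0.0879, 0.0578 and 0.0191 FPKM in BirA, ESC and Control and 16.6 FPKM in dESC_control (limma log2 difference 4.06, SE 0.19, Benjamini-Hochberg adjusted p = 0.000955). It was near 0 in every undifferentiated library. The POU factor Pou3f1 (Oct6) stood at 9.596, 6.33 and 3.599 against 67.6 FPKM and the de novo DNA methyltransferase Dnmt3b at 46.7, 65.8 and 31.1 against 149 FPKM (limma log2 difference 1.68, SE 0.40, Benjamini-Hochberg adjusted p = 0.0402). The kinase Pim2 was at 18.1, 12.9 and 13.3 against 96.3 FPKM and the zinc finger factor Sall2 at 2.38, 1.95 and 1.56 against 12.2 FPKM. The SOX factor Sox3 was at 2.49, 2.39 and 0.631 against 6.93 FPKM, and limma did not call it (limma log2 difference 1.56, SE 0.47, Benjamini-Hochberg adjusted p = 0.0761). Otx2, an early driver of the formative state, was chosen after its values were seen. It stood at 36.2, 20.1 and 29.3 against 24.03 FPKM, within 2-fold of every control. Another 5 genes of the list lay below all 3 controls, though within 2-fold of Control. They were Dnmt3a (25.2, 30.3 and 17.9 against 16.6 FPKM), Etv4 (43.6, 68.9 and 38.3 against 23.4 FPKM), Etv5, Foxd3 and Fgf15.

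Primitive streak genes had some of the largest differences of all. Of 22 genes, 17 reached 1 FPKM in either library, 14 of these were at least 2-fold higher and 0 lower, and the median log2 ratio was 2.61; by limma 13 were higher. Most were under 1 FPKM in Control and could enter only through dESC_control, so the count and median describe these genes and no more. Brachyury (T) stood at 0.105, 0.0689 and 0.0911 FPKM in BirA, ESC and Control and 70.7 FPKM in dESC_control, a log2 ratio of 6.04 (limma log2 difference 6.04, SE 0.20, Benjamini-Hochberg adjusted p = 0.000955). The Wnt-responsive factor Sp5 stood at 1.26, 0.972 and 0.266 against 71.04 FPKM, the ligand Wnt3, which the embryo needs to form a streak, at 0, 0.0218 and 0.072 against 28.7 FPKM, and Fgf8, needed for cells to leave it, at 0.884, 0.763 and 1.58 against 34.5 FPKM. The homeobox factors Evx1 and Mixl1 stood at 0.0722, 0.332 and 0.0471 against 11.8 FPKM and 0.247, 0.396 and 0.282 against 12.2 FPKM, and the T-box factor Eomes at 2.398, 1.83 and 2.75 against 21.96 FPKM. In each of these the 3 controls lay close together and the differentiated library far above them. Lower levels were reached by Wnt8a (6.97 FPKM in dESC_control), the caudal factors Cdx2 (6.87) and Cdx1 (5.104), the mesoderm factor Mesp1 (5.09), Nkx1-2 (3.75) and the organizer gene Gsc (2.72). The ligand Nodal stood at 33.97, 23.8 and 19.5 against 40.7 FPKM, 2-fold over Control but not beyond the spread of the 3 controls (limma log2 difference 0.68, SE 0.32, Benjamini-Hochberg adjusted p = 0.206). Fgf17 (26.2, 29.7 and 18.4 against 26.7 FPKM) and Mesp2 (1.04, 1.54 and 1.62 against 1.12 FPKM) were called by neither rule. Lhx1, at 0.0253, 0 and 0.0165 against 1.01 FPKM, missed the 2-fold rule with a log2 ratio of 0.99, and limma called it higher (limma log2 difference 0.99, SE 0.16, Benjamini-Hochberg adjusted p = 0.0125). The 5 that stayed under 1 FPKM in both libraries were Wnt3a, Tbx6, Cdx4, Foxa2 and Msgn1. A library from a mixed population cannot tell a higher level in all cells from a larger share of cells that express a gene, and likewise fewer cells of a type and less RNA per cell cannot be told apart.

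**Figure D2:**
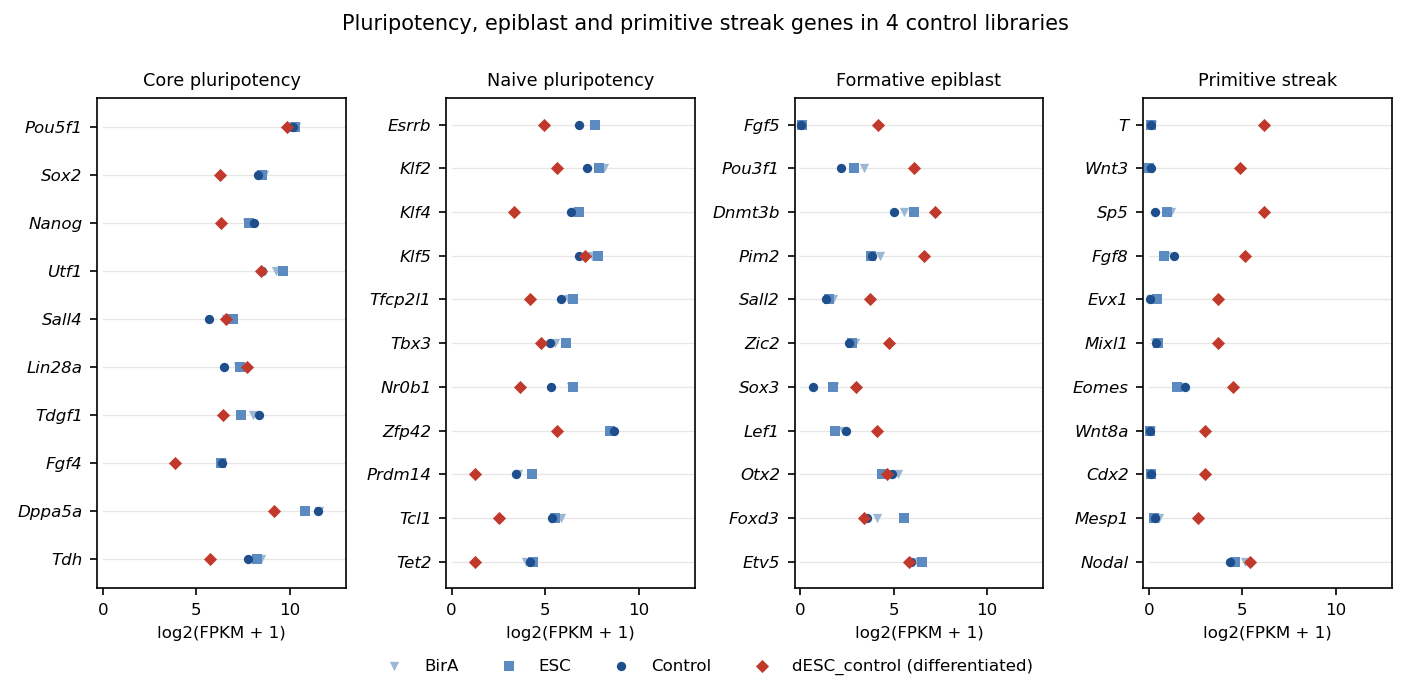
Levels of 43 genes in 4 groups, as log2(FPKM + 1) on the horizontal axis, in the 3 undifferentiated control libraries (blue) and in dESC_control (red diamonds), 1 point per library. Naive genes such as Klf4 and Zfp42 have the red point on the left, Fgf5, T and Wnt3 have it far on the right, Pou5f1 has it just left of the blue points and Otx2 among them; the genes shown were picked by hand from the lists.

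Mesoderm genes that could be compared were mostly higher. Of 23 lateral and paraxial mesoderm genes in the table, 11 reached 1 FPKM, 9 of them at least 2-fold higher and 1 lower, and limma called the same numbers. Of the 9, 7 were under 1 FPKM in Control and could enter only through dESC_control. Hand1, a basic helix-loop-helix factor of lateral plate and extraembryonic mesoderm, stood at 0.456, 0.675 and 0.0743 against 27.1 FPKM (limma log2 difference 4.35, SE 0.30, Benjamini-Hochberg adjusted p = 0.0015). The homeobox genes Msx1 and Msx2, both BMP targets, stood at 0.373, 0.147 and 0.194 against 26.1 FPKM and 0.558, 0.8103 and 1.11 against 13.9 FPKM. Snai1, the repressor of E-cadherin, was at 3.401, 3.03 and 1.701 against 8.36 FPKM. The cardiac mesoderm factors Tbx20 and Nkx2-5 reached lower levels, 0.105, 0.104 and 0.1398 against 2.74 FPKM and 0.537, 0.385 and 0.3499 against 2.55 FPKM, as did the mesenchymal factor Twist1, 0.722, 0.445 and 0.471 against 3.93 FPKM, and limma called all 3 higher (Benjamini-Hochberg adjusted p = 0.00302, 0.00931 and 0.00604). The 1 lower gene was Tcf15, a paraxial mesoderm factor that ES cells also express, at 110.3, 149 and 90.8 against 32.7 FPKM. Pdgfra, Kdr, Foxf1, Foxc1, Isl1 and Hand2 stayed under 1 FPKM in both libraries. All 34 Hox genes of the table were low, and 31 stayed under 1 FPKM in both libraries. None of the 34 passed the 2-fold rule.

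The lists of other early lineages held genes that differed in both directions. For definitive endoderm 5 of 12 genes reached 1 FPKM, 2 of them higher (Gsc and the keratin Krt19) and 1, Cxcr4, lower, while the endoderm factors Sox17, Foxa1 and Foxa2 stayed under 1 FPKM. For extraembryonic endoderm 13 of 24 genes reached 1 FPKM, 5 of them higher against the 12.9% of all genes, with a median log2 ratio of 0.43. Above all 3 controls lay 8 of the 13, a share that was not counted over all genes. By limma 5 were higher and 1 lower. The 5 were the basement membrane genes Col4a1 (4.13, 6.04 and 4.32 against 25.6 FPKM), Col4a2 (1.301, 2.22 and 1.55 against 17.7 FPKM), Lamb1 (22.7, 23.3 and 19.5 against 54.8 FPKM) and Sparc (78.8, 138 and 92.4 against 304 FPKM) and the endocytic adaptor Dab2 (0.554, 0.582 and 0.994 against 5.903 FPKM). Lama1 was lower (6.34, 9.56 and 6.897 against 0.955 FPKM), and of the factors that define this lineage Gata6, Sox7 and Sox17 stayed under 1 FPKM. Gata4, another of them, stood at 0.766, 0.517 and 0.513 against 1.43 FPKM, above all 3 controls and called by neither rule (limma log2 difference 0.61, SE 0.20, Benjamini-Hochberg adjusted p = 0.0898). For neuroectoderm 7 of 19 genes reached 1 FPKM, 3 higher and 2 lower, the same numbers as by limma. Nes, the intermediate filament of neural and other progenitors, stood at 1.84, 2.35 and 1.15 against 50.1 FPKM and Sox11 at 4.62, 2.57 and 3.19 against 12.7 FPKM, but Tubb3, the neuronal tubulin, at 39.5, 61.8 and 39.7 against 16.1 FPKM. The neural plate factors Sox1 and Pax6 stayed under 1 FPKM in both libraries. The neurofilament genes Nefl and Nefm were higher, at 7.45, 8.23 and 4.903 against 65.4 FPKM and 0.872, 0.8599 and 0.824 against 17.2 FPKM.

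Epithelial genes were higher. Of 17 surface ectoderm and epithelial genes compared, 13 were at least 2-fold higher and 1 lower, with a median log2 ratio of 2.54; limma called 11 and 1. Krt8 and Krt18, which pair into the intermediate filaments of simple epithelia, stood at 7.32, 4.12 and 5.98 FPKM in BirA, ESC and Control and 486 FPKM in dESC_control and at 17.4, 8.87 and 18.7 against 832 FPKM. Their log2 ratios over Control were 6.13 and 5.40 (limma log2 difference 6.19, SE 0.31, Benjamini-Hochberg adjusted p = 0.000999 for Krt8). Krt19, another simple epithelial keratin, stood at 11.1, 6.198 and 10.3 against 170.3 FPKM and the desmosomal protein Perp at 5.77, 5.02 and 5.79 against 55.7 FPKM. E-cadherin (Cdh1), the main adhesion molecule of ES cells and epithelia, was 2.37-fold higher than in Control, at 124, 122 and 108 against 256 FPKM (limma log2 difference 1.11, SE 0.19, Benjamini-Hochberg adjusted p = 0.0157). The stratified epithelium genes Krt5 and Trp63 stayed under 1 FPKM, with Krt5 listed at 0 in both libraries, while Krt14, the keratin that pairs with Krt5, stood at 0, 0.0436 and 0 against 4.52 FPKM (limma log2 difference 2.44, SE 0.17, Benjamini-Hochberg adjusted p = 0.00153). The 1 lower gene was Grhl3, an epidermal factor (chosen after its values were seen), at 11.7, 10.5 and 11.2 against 4.71 FPKM.

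The trophoblast list shares keratins and streak genes with the lists above. Of its 17 genes compared, 11 were at least 2-fold higher and 1 lower, and limma called the same numbers. Gata3 stood at 0.149, 0.0843 and 0.0139 against 11.3 FPKM and Tfap2a, which is also a neural crest and surface ectoderm factor, at 0.7496, 0.763 and 0.867 against 18.7 FPKM. Among the higher genes, Gata3, Tfap2a, Cdx2, Gata2, Hand1 and Fgfr2 were under 1 FPKM in Control and could enter only through dESC_control. Over all genes compared, 12.9% were at least 2-fold higher. Elf5 and Plac1 stayed under 1 FPKM in both libraries, and Tfap2c (29.6, 21.2 and 20.9 against 8.87 FPKM) was the 1 lower gene. In the neural crest list 4 of 12 genes reached 1 FPKM. Tfap2a, Msx1 and the ETS factor Ets1 (0.574, 0.352 and 0.526 against 6.86 FPKM) were under 1 FPKM in Control and could enter only by being higher, and the receptor Erbb3 stood at 5.59, 5.96 and 4.83 against 17.7 FPKM (limma log2 difference 1.54, SE 0.23, Benjamini-Hochberg adjusted p = 0.0106), while Sox10, Sox9, Pax3 and Snai2 stayed under 1 FPKM.

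Genes of the actin cytoskeleton were higher with few exceptions. Of 25 genes of the actin cytoskeleton and of serum response factor (SRF), the transcription factor that senses actin assembly through its coactivators, 22 were at least 2-fold higher and 0 lower, with a median log2 ratio of 2.40. By limma 21 were higher. Their summed level was 2865, 3086 and 2220 FPKM in BirA, ESC and Control and 9151 FPKM in dESC_control. The calponin-related Tagln (SM22), an early smooth muscle gene, stood at 4.01, 1.94 and 2.31 FPKM in BirA, ESC and Control and 880.5 FPKM in dESC_control. Its log2 ratio of 8.06 was the highest of the genes compared (limma log2 difference 7.92, SE 0.34, Benjamini-Hochberg adjusted p = 0.000955). Tropomyosin 1 (Tpm1), which coats actin filaments, stood at 53.1, 47.4 and 47.3 FPKM in BirA, ESC and Control and 985 FPKM in dESC_control (limma log2 difference 4.30, SE 0.19, Benjamini-Hochberg adjusted p = 0.000955). The muscle actins Acta1 and Acta2 stood at 0.252, 0.448 and 0.0658 against 97.7 FPKM and 0.434, 0.295 and 0.0354 against 17.8 FPKM, the myosin light chain Myl9 at 1.54, 1.81 and 2.06 against 64.6 FPKM, the focal adhesion protein Zyx at 7.47, 6.45 and 5.37 against 140.3 FPKM and the calponin Cnn1 at 1.95, 0.463 and 2.17 against 41.6 FPKM. Cytoplasmic actin (Actb) was already among the most abundant RNAs and stood at 1794, 2141 and 1288 against 3970 FPKM, above all 3 controls but outside the limma call (limma log2 difference 1.22, SE 0.35, Benjamini-Hochberg adjusted p = 0.0688). Of the profilin gene Pfn1, which feeds actin monomers to filaments, dESC_control held 1654 FPKM against 1148, 1480 and 832 in the controls. Pfn1 is not on the list and was named for being among the 10 largest FPKM gains. The 3 genes of the list within 2-fold were Cnn3, Mkl1 and Lima1 (chosen after their values were seen), and Lima1 was lower than in Control, 45.9, 27.6 and 39.03 against 22.7 FPKM.

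Promoters of this group and of YAP targets were read from RefSeq (GRCm38.p6) as the 250 bases before the annotated start, for the 9834 compared genes that have one there. SRF binds the CArG box, 2 C bases, 6 bases that are each A or T, and 2 G bases, and TEAD factors, through which Yap1 reaches DNA, bind GGAATG. All motifs were searched on both strands, and their matches may overlap. A CArG box was found in 8 of 23 promoters of the actin and SRF list (34.8%), against 1.19% of all 9834, 2.19% of the genes at least 2-fold higher and 0.834% of those lower. GGAATG was found in 8 of 15 promoters of the YAP and TEAD target list (53.3%), against 10.6% of all, 13.8% of the higher and 12.2% of the lower genes. It was also found in 7 of 23 promoters of the actin and SRF list (30.4%), among them that of Acta1, and so was not particular to the YAP list. Both lists hold known targets of these factors and so are not independent of the motifs. The promoters of 3 actin genes and 2 YAP targets with large differences are shown, 5′ to 3′ towards the start, with the CArG box (Acta1, Myl9, Cnn2) or the TEAD motif (Amotl2, Cyr61, where its complement CATTCC is read on this strand) in capitals; the TEAD motif of Acta1 is left in lower case. The capitals begin 73, 161, 56, 65 and 103 bases before the start, in that order.
Acta1, chr8:123894776-123895025, minus strand: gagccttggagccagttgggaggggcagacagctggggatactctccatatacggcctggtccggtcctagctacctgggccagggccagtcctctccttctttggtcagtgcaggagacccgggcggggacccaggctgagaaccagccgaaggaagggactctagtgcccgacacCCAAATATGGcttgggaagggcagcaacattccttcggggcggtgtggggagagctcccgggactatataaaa
Myl9, chr2:156775214-156775463, plus strand: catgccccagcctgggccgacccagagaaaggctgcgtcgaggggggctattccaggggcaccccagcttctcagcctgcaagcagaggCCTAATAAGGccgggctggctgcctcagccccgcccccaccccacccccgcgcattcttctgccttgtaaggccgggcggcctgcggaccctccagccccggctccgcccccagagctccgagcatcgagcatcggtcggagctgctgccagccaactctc
Cnn2, chr10:79988350-79988599, plus strand: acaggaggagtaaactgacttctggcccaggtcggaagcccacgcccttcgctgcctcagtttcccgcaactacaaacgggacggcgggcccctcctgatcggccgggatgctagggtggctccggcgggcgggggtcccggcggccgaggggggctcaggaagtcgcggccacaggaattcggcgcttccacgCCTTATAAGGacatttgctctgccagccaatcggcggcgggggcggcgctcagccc
Amotl2, chr9:102717554-102717803, plus strand: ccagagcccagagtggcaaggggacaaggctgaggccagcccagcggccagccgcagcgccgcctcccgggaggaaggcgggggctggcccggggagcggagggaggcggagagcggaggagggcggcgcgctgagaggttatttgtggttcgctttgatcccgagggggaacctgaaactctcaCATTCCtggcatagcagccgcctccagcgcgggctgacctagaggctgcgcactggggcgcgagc
Cyr61, chr3:145649986-145650235, minus strand: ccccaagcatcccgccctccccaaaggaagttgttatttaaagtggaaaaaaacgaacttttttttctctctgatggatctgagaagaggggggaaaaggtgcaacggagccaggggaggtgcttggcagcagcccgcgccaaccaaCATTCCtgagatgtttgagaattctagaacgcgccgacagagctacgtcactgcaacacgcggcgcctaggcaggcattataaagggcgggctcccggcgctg
A match is a description of the sequence and was not tested for binding. The octamer ATGCAAAT of Pou5f1 was found in 1.39% of all promoters, 1.46% of higher and 2.19% of lower genes. The T-box motif AGGTGTNA was found in 1.88%, 1.7% and 2.398%.

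YAP and TEAD targets were higher with the cytoskeletal genes. Of 20 genes compared, 14 were at least 2-fold higher and 1 lower, with a median log2 ratio of 1.93, and limma called the same numbers. The matricellular protein Cyr61 (CCN1), whose promoter is shown above, stood at 3.56, 5.88 and 3.38 FPKM in BirA, ESC and Control and 231 FPKM in dESC_control (limma log2 difference 5.49, SE 0.32, Benjamini-Hochberg adjusted p = 0.00116). Its relative Ctgf (CCN2) stood at 5.74, 7.62 and 2.73 against 47.4 FPKM, and the junction protein Amotl2, a feedback inhibitor of YAP, at 12.3, 18.1 and 7.78 against 179 FPKM. The insulin-like growth factor binding protein Igfbp3 stood at 4.14, 5.79 and 5.08 against 289 FPKM, the phosphatase Ptpn14 at 3.01, 3.64 and 3.79 against 37.2 FPKM and the ectonucleotidase Nt5e at 0.952, 0.714 and 0.608 against 9.61 FPKM. For each of these dESC_control lay above the highest control. Among the higher genes, Nt5e, Ankrd1, Axl, Lats2 and Crim1 were under 1 FPKM in Control and could enter only through dESC_control. The share of all genes compared that were at least 2-fold higher was 12.9%. The 1 lower gene was Myof, a membrane repair protein (chosen after its values were seen), at 9.81, 11.2 and 9.12 against 3.06 FPKM. Yap1 RNA itself stood at 46.7, 65.4 and 37.4 against 78.05 FPKM, 2.08-fold over Control, above all 3 controls but not beyond their spread (limma log2 difference 0.67, SE 0.32, Benjamini-Hochberg adjusted p = 0.207). Its paralog Wwtr1 (TAZ) stood at 9.41, 7.88 and 9.18 against 27.1 FPKM (limma log2 difference 1.52, SE 0.22, Benjamini-Hochberg adjusted p = 0.00945). Of the TEAD genes, all 4 lay above Control and 2 were at least 2-fold higher, Tead3 (0.974, 0.816 and 0.957 against 27.1 FPKM) and Tead1 (10.03, 11.3 and 9.41 against 25.6 FPKM), both chosen after their values were seen.

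Matrix and adhesion genes were higher in part. Thrombospondin 1 (Thbs1), a secreted matrix protein, stood at 0.413, 0.306 and 0.0449 FPKM in BirA, ESC and Control and 106 FPKM in dESC_control (limma log2 difference 6.42, SE 0.26, Benjamini-Hochberg adjusted p = 0.000955). Of 17 matrix genes compared, 10 were higher by the 2-fold rule and 2 lower (Nid1 and P4ha1), and limma called 11 and 1. The collagen chaperone Serpinh1 was at 15.5, 16.2 and 16.1 against 118 FPKM, the membrane protease Mmp14 at 8.81, 13.6 and 4.98 against 36.4 FPKM, perlecan (Hspg2) at 11.8, 17.2 and 13.3 against 54.3 FPKM and Col5a1 at 2.18, 2.95 and 2.56 against 18.3 FPKM. Fibronectin (Fn1, chosen after its values were seen) was within 2-fold, at 131, 143 and 125 against 140.0 FPKM. Of 10 integrin genes 6 were higher and 0 lower by either rule, with the highest log2 ratios for Itga3, a laminin receptor subunit (13.1, 19.9 and 13.97 against 104 FPKM), and Itga5, a fibronectin receptor subunit (14.6, 19.9 and 13.1 against 57.7 FPKM). The annexin and S100 list holds 15 genes, of which 2 encode galectins, which bind sugars, and the others annexins and S100 proteins, which bind calcium. Of these 10 were higher and 1, Anxa8, lower by the 2-fold rule, and limma called 8 and 0. The highest log2 ratios were those of Anxa3 (2.403, 2.05 and 3.13 against 99.8 FPKM), Anxa1 (2.38, 2.08 and 1.199 against 28.04 FPKM) and the galectin Lgals1 (108, 109 and 96.1 against 529 FPKM), and S100a10 stood at 126, 147 and 131 against 600.4 FPKM. The list of the epithelial to mesenchymal transition mixes epithelial genes with mesenchymal ones. By the 2-fold rule 11 of 16 were higher and 0 lower, and by limma 11 and 1. The higher genes included the epithelial Cdh1, Esrp1, Grhl2 and Ocln as well as the mesenchymal Cdh2 (0.405, 0.671 and 0.189 against 3.67 FPKM), Snai1 and Twist1. Zeb1, a repressor of epithelial genes, was the 1 that limma called lower, at 1.58, 2.62 and 1.35 against 0.226 FPKM (limma log2 difference -1.19, SE 0.29, Benjamini-Hochberg adjusted p = 0.0433).

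Wnt ligands were higher. All 10 ligand genes that reached 1 FPKM were at least 2-fold higher, with a median log2 ratio of 2.96, and limma called all 10. All 10 were near or under 1 FPKM in Control, so most could pass the filter only through the differentiated library. Their summed level was 7.42, 7.13 and 5.27 FPKM in BirA, ESC and Control and 182 FPKM in dESC_control. Wnt6 stood at 1.62, 1.498 and 0.9903 FPKM in BirA, ESC and Control and 78.02 FPKM in dESC_control, Wnt4 at 0.07103, 0.0876 and 0.0695 against 19.6 FPKM, Wnt7b at 2.79, 3.895 and 1.29 against 22.2 FPKM and Wnt10a at 0.146, 0 and 0.167 against 8.18 FPKM. The other 8 ligand genes of the table stayed under 1 FPKM in both libraries, Wnt3a, Wnt5a and Wnt11 among them. Of 18 Wnt targets and antagonists 10 were higher and 2, Dkk3 and Sfrp1, lower, while limma called 6 and 2. Axin2, a feedback inhibitor and general Wnt target, stood at 2.81, 4.41 and 2.74 against 26.1 FPKM, and Lef1, a nuclear effector, at 3.9, 2.67 and 4.43 against 16.1 FPKM. The cell cycle genes Ccnd1 (39.8, 73.4 and 27.2 against 87.9 FPKM) and Myc (19.09, 49.8 and 9.97 against 37.1 FPKM) were 2-fold above Control, but limma called neither (Benjamini-Hochberg adjusted p = 0.227 and 0.533), and Myc was higher in ESC than in dESC_control. The secreted antagonist Sfrp1 was lower than in every control, at 35.8, 37.8 and 29.8 against 3.395 FPKM (limma log2 difference -3.01, SE 0.22, Benjamini-Hochberg adjusted p = 0.00169).

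**Figure D3:**
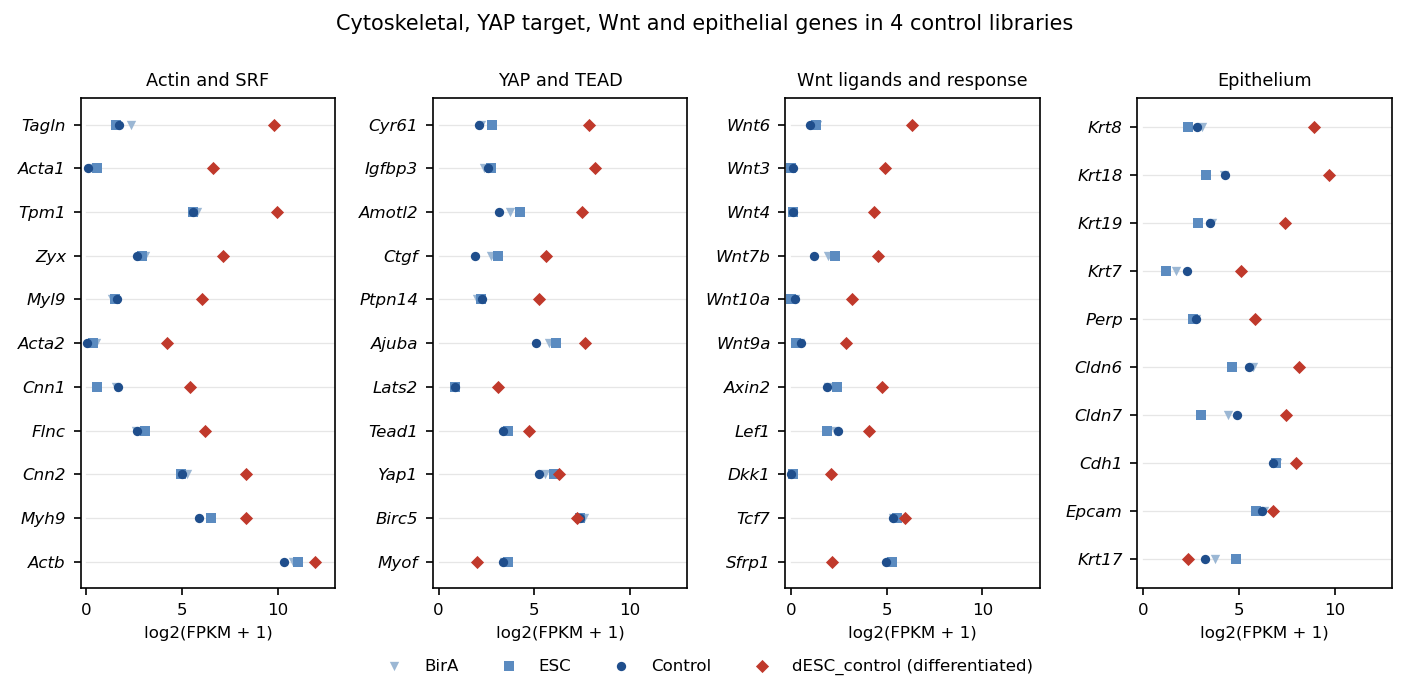
Levels of 43 genes in 4 groups, as log2(FPKM + 1) on the horizontal axis, in the 3 undifferentiated control libraries (blue) and in dESC_control (red diamonds), 1 point per library. The red point lies right of all blue points for Tagln, Cyr61, Wnt6 and Krt8, close to them for Birc5 and Tcf7, and left of them for Sfrp1 and Myof; the genes shown were picked by hand from the lists.

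Among TGF-beta family genes 9 of 22 were higher by the 2-fold rule and 3 lower, and limma called 8 and 3. Id2 and Id3, BMP targets and inhibitors of helix-loop-helix factors, stood at 10.6, 6.85 and 9.17 against 82.7 FPKM and 21.1, 56.5 and 14.7 against 183 FPKM, and the activin antagonist follistatin (Fst) at 0.905, 1.28 and 0.924 against 21.5 FPKM. Tgfb2 was at 0.0568, 0.196 and 0.0463 against 7.33 FPKM. The 3 lower genes were Inhbb, the activin B subunit (16.5, 54.4 and 19.6 against 0.348 FPKM), Bmp4 (17.5, 34.6 and 15.7 against 5.06 FPKM) and Tdgf1. In the FGF and ERK list 6 of 21 were higher and 1, Fgf4, lower (6 and 2 by limma). The ERK phosphatases Dusp4 and Dusp6, feedback targets of the pathway, stood at 6.54, 5.91 and 4.603 against 73.3 FPKM and 27.8, 32.02 and 20.1 against 89.3 FPKM, and the receptor Fgfr1 at 14.2, 17.6 and 13.6 against 46.9 FPKM. The ligands differed by member, with Fgf4 lower and Fgf5 and Fgf8 higher. In the LIF and STAT3 list 2 of 13 were higher and 4 lower by either rule. The receptor Lifr stood at 13.8, 16.1 and 14.8 against 3.6 FPKM and Socs3 at 94.7, 43.6 and 36.9 against 5.87 FPKM, while the ligand Lif itself was at 0.479, 0.682 and 0.603 against 6.85 FPKM and the phosphatase Ptpn11 at 19.3, 26.4 and 15.9 against 50.2 FPKM. Retinoic acid genes were mixed, with 4 of 11 higher (Cyp26a1, Crabp2, Dhrs3 and Cdx1) and 2 lower, the latter being Stra8 and the binding protein Crabp1 (85.5, 56.1 and 104.6 against 16.4 FPKM). By limma 2 were higher and 3 lower, and Crabp2 and Cdx1 were not called (Benjamini-Hochberg adjusted p = 0.0694 and 0.0726). In the Notch and Hedgehog list 3 of 15 were higher, Gli3 (0.883, 1.102 and 0.601 against 13.4 FPKM), Notch2 (3.005, 4.07 and 3.43 against 13.5 FPKM) and the Notch glycosyltransferase Lfng (2.17, 1.16 and 2.26 against 8.54 FPKM), and 3 lower, Notch4, Hey1 and the Hedgehog target Gli1 (10.6, 16.2 and 10.7 against 3.62 FPKM), and limma called 5 and 2.

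Genes of interferon response and antigen presentation were higher for the most part, though their summed level was not. Of 17 compared, 12 were at least 2-fold higher and 1 lower, with a median log2 ratio of 1.81; limma called 11 and 2. The guanylate-binding GTPases Gbp2 and Gbp2b, interferon-gamma targets that are close relatives and may share reads, stood at 0.486, 0.254 and 0.0931 against 89.04 FPKM and 0.3195, 0.09699 and 0.0481 against 67.4 FPKM. The immunoproteasome subunit Psmb8 stood at 0.885, 0.374 and 0.371 FPKM in BirA, ESC and Control and 42.1 FPKM in dESC_control (limma log2 difference 4.82, SE 0.27, Benjamini-Hochberg adjusted p = 0.0011). The peptide loading proteins Tapbp, Tap1 and Tap2 were at 11.8, 10.2 and 7.995 against 102 FPKM, 1.498, 0.554 and 1.65 against 10.2 FPKM and 1.57, 0.944 and 1.71 against 14.6 FPKM, and the transcription factor Irf1 at 27.5, 20.4 and 21.5 against 95.4 FPKM. Isg15, a ubiquitin-like modifier, was at 0.117, 0.231 and 0.153 against 7.005 FPKM. Ifit1, Ifit3 and Irf7 stayed under 1 FPKM in both libraries. The 1 lower gene was the antiviral membrane protein Ifitm2 (644, 649 and 689.8 against 245 FPKM). The summed level of the 20 list genes was 1346, 1114 and 1179 against 1236 FPKM, within the range of the controls. Of 6 Ifitm genes, grouped by symbol after the values were seen, 5 had a log2 ratio below 0. By the 2-fold rule 2 of them were lower and 1 higher, and their sum was 995 FPKM in Control and 504 FPKM in dESC_control. The chemokine Cxcl10 stood at 0.144, 0.213 and 0.563 against 35.5 FPKM. Cxcl10, which like Gbp2 and Gbp2b is not on the list, was chosen after its values were seen. The interferon-stimulated response element, searched after values were seen as a pair of GAAA runs with any 2 bases between them, was found in 4 of 15 promoters of the list (26.7%), 2.31% of all, 2.83% of higher and 2.503% of lower genes. In the immediate early and AP-1 list 10 of 14 were higher and 0 lower (8 and 0 by limma), with Jun at 2.37, 1.15 and 3.12 against 41.9 FPKM, Junb at 20.2, 16.4 and 11.5 against 77.7 FPKM, Atf3 at 1.27, 0.931 and 1.63 against 19.3 FPKM and Fosl2 at 0.704, 0.582 and 0.363 against 7.68 FPKM. Fos (3.54, 1.45 and 1.93 against 2.71 FPKM) and Egr1 (32.7, 39.8 and 24.96 against 30.4 FPKM), both chosen after their values were seen, lay within 2-fold.

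Of 21 imprinted genes compared, which are expressed from 1 parental copy, 11 were at least 2-fold higher and 1 lower, and limma called 9 and 0. Igf2, the fetal growth factor, stood at 1.49, 1.59 and 0.273 FPKM in BirA, ESC and Control and 36.3 FPKM in dESC_control (limma log2 difference 4.21, SE 0.45, Benjamini-Hochberg adjusted p = 0.00389). The long noncoding RNA H19, its neighbour, stood at 16.3, 3.24 and 3.39 against 50.5 FPKM, above all 3 controls, and limma did not call it (limma log2 difference 2.91, SE 0.82, Benjamini-Hochberg adjusted p = 0.0638). The paternally expressed Peg10 and Peg3 stood at 32.6, 62.2 and 28.2 against 429.5 FPKM and 4.58, 3.37 and 2.92 against 58.3 FPKM. The 1 lower gene was the noncoding RNA Meg3 (chosen after its values were seen), at 6.54, 5.61 and 28.3 against 8.36 FPKM, a difference that BirA and ESC did not share.

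Germline genes were lower. Of 11 compared, 7 were at least 2-fold lower and 0 higher, with a median log2 ratio of -1.45; limma called 5 lower. Stra8, the retinoic acid-induced meiosis gene, stood at 4.07, 5.08 and 15.3 FPKM in BirA, ESC and Control and 0.03896 FPKM in dESC_control (limma log2 difference -2.94, SE 0.66, Benjamini-Hochberg adjusted p = 0.0339). Tex19.1 and Tdrd12, both of the transposon control pathway of germ cells, stood at 40.2, 54.3 and 55.7 against 13.4 FPKM and 24.4, 15.6 and 26.2 against 5.398 FPKM. The oocyte gene Khdc3 stood at 56.2, 62.95 and 30.2 against 0.789 FPKM and the ribosomal protein variant Rpl39l, known from testis, at 61.95, 54.5 and 68.03 against 2.605 FPKM. Khdc3 and Rpl39l are not on the germline list and were named for being among the 15 lowest ratios, so they add nothing to its count. Of 20 Polycomb and BAF genes 1 was higher by the 2-fold rule (Arid1a, which limma did not call) and 3 lower, namely Ezh1 (9.53, 8.64 and 11.2 against 3.69 FPKM), the BAF subunit Smarcd3 (23.7, 15.9 and 22.2 against 1.28 FPKM) and the Polycomb accessory protein Mtf2 (68.2, 68.9 and 79.4 against 29.9 FPKM). By limma 6 of the 20 were lower, against 6.77% of all genes, and 0 higher, with the Polycomb core genes Ezh2 (93.2, 86.2 and 81.8 against 47.6 FPKM) and Eed (152, 152 and 131 against 68.8 FPKM) and their partner Jarid2 (115, 135 and 91.7 against 49.6 FPKM) added to those 3 (Benjamini-Hochberg adjusted p = 0.0312, 0.019 and 0.0329). Of 12 DNA methylation genes Dnmt3b and Gadd45b (17.96, 9.28 and 23.3 against 119 FPKM) were higher, and Tet2, Tet1 (24.1, 25.3 and 14.9 against 6.82 FPKM) and the imprint protector Zfp57 (96.7, 133 and 134 against 30.2 FPKM) lower, and limma called all 5.

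Glycolysis and hypoxia genes were lower, by an amount that depended on the control. Of 24 compared, 11 were at least 2-fold lower and 1, the glucose transporter Slc2a3 (287, 224 and 281 against 578 FPKM), higher; limma called 7 and 1. The median log2 ratio was -0.92 over Control, -1.06 over BirA and -0.50 over ESC. The mitochondrial protein Ndufa4l2, a hypoxia target, stood at 29.04, 7.39 and 31.3 FPKM in BirA, ESC and Control and 0.322 FPKM in dESC_control (limma log2 difference -3.93, SE 0.78, Benjamini-Hochberg adjusted p = 0.0234). The mitophagy receptor Bnip3 stood at 30.2, 7.16 and 55.1 against 2.42 FPKM, below all 3 controls, and limma did not call it (limma, Benjamini-Hochberg adjusted p = 0.11). The glycolytic enzymes Pfkp and Aldoc stood at 70.2, 57.8 and 85.3 against 9.88 FPKM and 29.5, 13.9 and 36.1 against 3.84 FPKM, and the oxygen sensor Egln3 at 38.5, 14.7 and 29.9 against 4.65 FPKM. Txnip, an inhibitor of glucose uptake, stood at 154, 52.1 and 238 FPKM in BirA, ESC and Control and 4.29 FPKM in dESC_control (limma log2 difference -4.56, SE 0.78, Benjamini-Hochberg adjusted p = 0.0155). Txnip is not on the list and was named for being among the 15 lowest ratios. For Ndufa4l2, Bnip3, Aldoc and Txnip the ESC library lay below BirA and Control, and dESC_control below all 3.

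**Figure D4:**
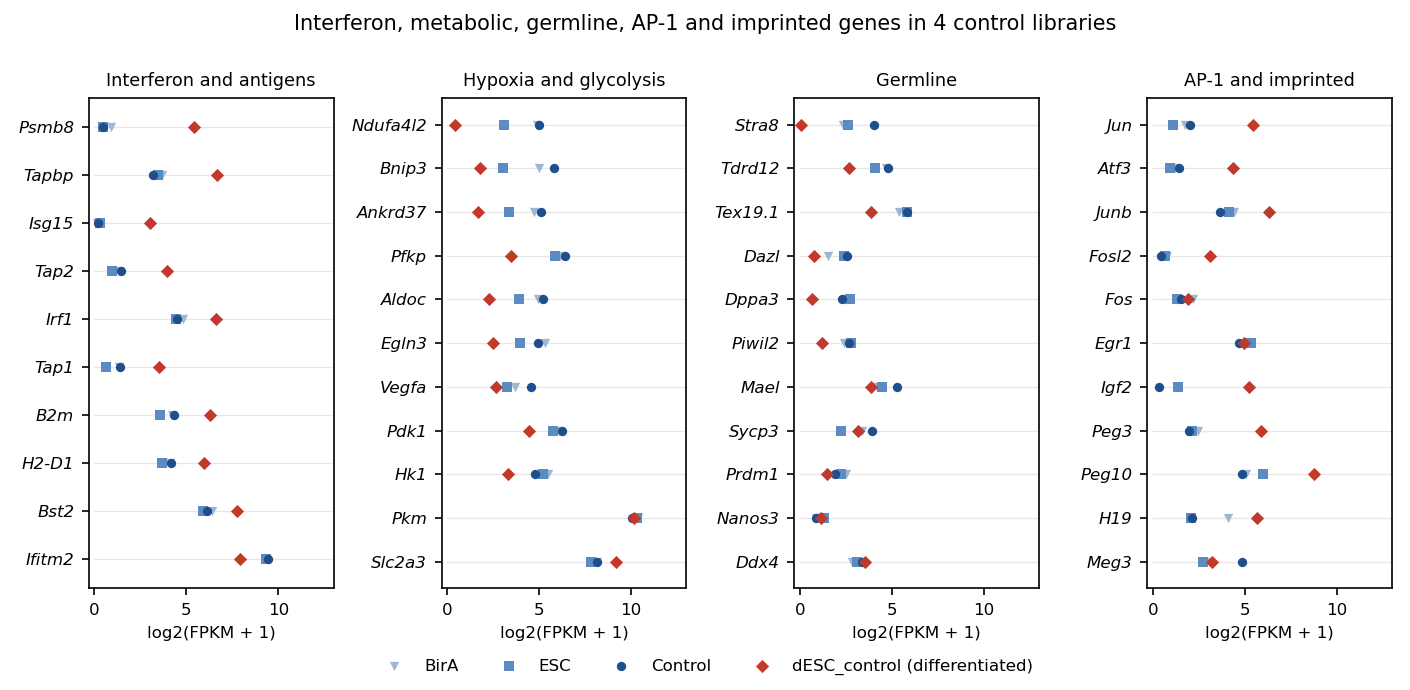
Levels of 43 genes in 4 groups, as log2(FPKM + 1) on the horizontal axis, in the 3 undifferentiated control libraries (blue) and in dESC_control (red diamonds), 1 point per library. Red points lie right of the blue ones for Psmb8, Jun and Igf2 and left of them for Ndufa4l2, Bnip3 and Stra8, where the blue points are spread out; the genes shown were picked by hand from the lists.

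Of 28 cell cycle genes 2 were higher by the 2-fold rule, Ccnd1 and Myc, and 1, Rbl1, lower (median log2 ratio -0.08), and limma called 0 and 1. Of 18 cholesterol synthesis genes 1 was lower (Insig1, 41.3, 30.9 and 67.2 against 28.1 FPKM), and limma did not call it. Of 17 genes of the ATF4 stress response 2 were higher (Sesn2 and Herpud1) and 1 lower (Psph), with a median log2 ratio of 0.04, and limma called 1 and 0. Among 17 p53 targets 6 were higher by the 2-fold rule and 2 lower (Sesn1 and Gdf15), against 12.9% and 9.85% of all genes compared. Their median log2 ratio was 0.90, and 12 lay above all 3 controls, a share that was not counted over all genes. The kinase Plk2 stood at 10.6, 5.91 and 10.8 against 74.1 FPKM and Phlda3, an inhibitor of Akt, at 52.1, 39.3 and 36.9 against 179 FPKM, while Cdkn1a, the cell cycle inhibitor and best known target, stood at 41.7, 22.7 and 35.6 against 68.7 FPKM, within 2-fold of Control. Of 17 apoptosis genes 7 were higher and 2, Bmf and Bnip3l, lower, with a median log2 ratio of 0.68, and limma called 5 and 1. The higher genes included the death inhibitor Bcl2 (0.167, 0.1096 and 0.0965 against 2.02 FPKM) and the death promoter Bcl2l11 (6.39, 5.98 and 5.67 against 16.9 FPKM). Of 9 metallothionein and iron genes 1 was higher, 2 were lower and 6 lay within 2-fold, with a median log2 ratio of -0.02. The higher gene was the iron exporter Slc40a1 (0.8905, 0.299 and 1.07 against 14.98 FPKM). The lower genes were transferrin (Trf, 8.13, 7.66 and 8.89 against 0.801 FPKM) and its receptor Tfrc (37.7, 26.4 and 65.95 against 31.3 FPKM). Tfrc was not below ESC.

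**Figure D5:**
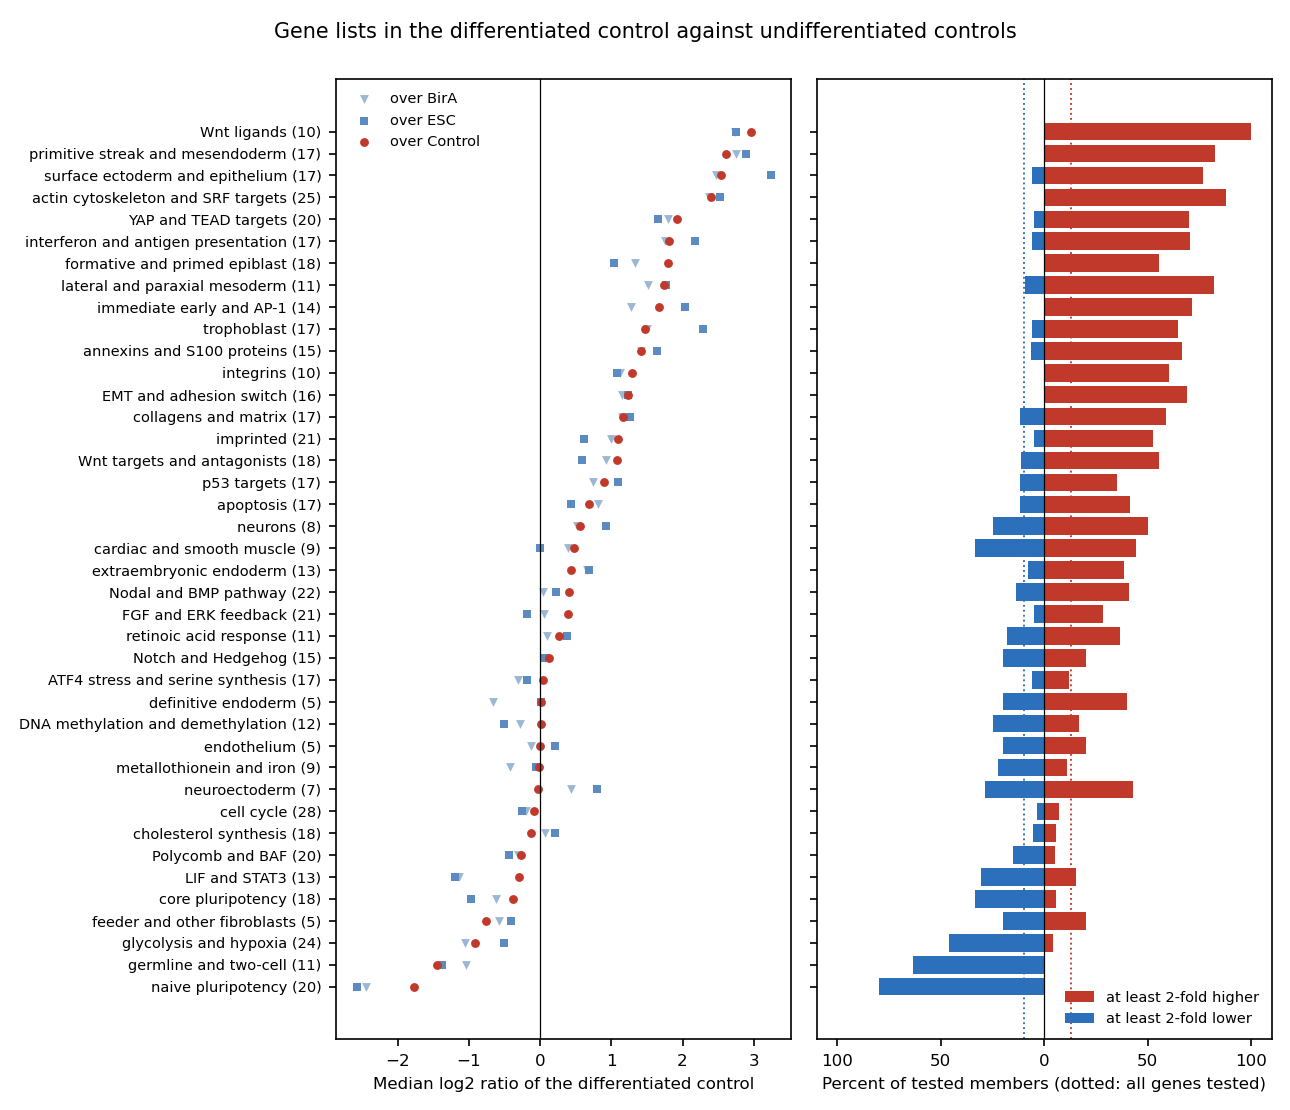
Left, the median log2(FPKM + 1) ratio of dESC_control over each undifferentiated control for every gene list with 5 or more genes compared (number in brackets); right, the percent of those genes at least 2-fold higher (red) or lower (blue) than in Control, with dotted lines at the 12.9% and 9.85% of all genes. Wnt ligands, streak, epithelial and actin lists lie at the top and naive pluripotency, germline and glycolysis lists at the bottom; lists share genes, and their medians over the 3 controls share dESC_control.

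Markers of other cell types that a culture could hold differed by list. Of 12 fibroblast and feeder markers 5 reached 1 FPKM, 1 higher (Col1a1, 1.401, 0.832 and 1.06 against 5.74 FPKM) and 1 lower (Thy1, 19.3, 18.7 and 22.3 against 3.404 FPKM). Their summed level was 51.2, 40.4 and 48.8 FPKM in BirA, ESC and Control and 30.3 FPKM in dESC_control. Dcn, Fap and Postn stayed under 1 FPKM and Lum was listed at 0 in both libraries. For endothelium 5 of 11 reached 1 FPKM and the sum was 41.2, 42.9 and 44.03 FPKM in BirA, ESC and Control and 27.3 FPKM in dESC_control, with the vascular receptor Flt1 higher (0.169, 0.261 and 0.1999 against 8.801 FPKM), Pecam1, which ES cells also express, lower, and Cdh5, Tie1 and Kdr under 1 FPKM. For blood 2 of 10 reached 1 FPKM and the sum was 4.73, 4.304 and 5.81 FPKM in BirA, ESC and Control and 3.597 FPKM in dESC_control, with Ptprc listed at 0 in both. In the cardiac and smooth muscle list 4 of 9 were higher and 3 lower, and the sum was 45.5, 51.9 and 52.7 FPKM in BirA, ESC and Control and 117 FPKM in dESC_control. The smooth muscle genes Cnn1 and Smtn (11.1, 17.7 and 11.6 against 53.1 FPKM) were higher, the early cardiac light chains Myl7 (12.8, 14.3 and 17.3 against 3.82 FPKM) and Myl4 (4.95, 5.25 and 6.82 against 0.576 FPKM) lower, Myh11 under 1 FPKM and Nppa listed at 0. In the neuron list 4 of 8 were higher (Nefl, Nefm, Gap43 and Syt1) and 2 lower (Tubb3 and Elavl3), and the sum was 282, 302 and 322 FPKM in BirA, ESC and Control and 282 FPKM in dESC_control. Its most abundant gene was Stmn2, which encodes a tubulin-binding protein and stood at 199, 204 and 248 against 131 FPKM. Dcx, Elavl4, Snap25 and Rbfox3 stayed under 1 FPKM. The part of such cells in the results was not tested.

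In cells with the Yap1 knockdown the same step, dESC_Yap1_KD over Yap1_KD, gave 1242 genes at least 2-fold higher (10.2%) and 1227 lower (10.1%) of 12184. Yap1 stood at 4.55 and 12.5 FPKM in that pair, against 37.4 and 78.05 in the control pair. Across 8142 genes the log2 ratios of the pairs correlated at r = 0.881 and rho = 0.876, a description across genes, which are not independent replicates. The higher genes shared by both pairs were 886, which is 55.7% of the 1590 in control cells and 71.3% of the 1242 in knockdown cells. The lower genes shared were 840, 69.2% and 68.5%. Only 4 genes were higher in control cells and lower in knockdown cells, Folr1, Pdzk1ip1, Sct and Tgm1 (chosen after their values were seen), and 0 the other way.

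Gene groups are set side by side for the 2 pairs, and their differences could not be tested with 1 library each. The genes are those that reached 1 FPKM in the control pair, which by itself can make the control median the larger one, most of all for genes low in undifferentiated cells, so no order is read from these medians, and none is given for streak genes and Wnt ligands. Median log2 ratios in control and knockdown cells were -1.77 and -1.45 for naive genes and 1.79 and 2.08 for formative genes. They were 2.40 and 1.35 for actin and SRF genes, 1.93 and 0.81 for YAP targets and 2.54 and 0.74 for epithelial genes. T reached 70.7 FPKM in dESC_control and 19.96 FPKM in dESC_Yap1_KD, Krt8 486 and 65.2, Tagln 880.5 and 156, and Wnt6 78.02 and 8.46. T, Krt8, Tagln and Wnt6 were named for being among the 15 highest ratios of the control pair. That choice by itself can make their knockdown values the smaller ones, so no order is read from them. Fgf5 reached 16.6 and 23.3 FPKM and Dnmt3b 149 and 250.3. Sox2 stood at 76.3 and 182 FPKM and Esrrb at 30.3 and 86.9.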

How the data were processed

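The authors deposited 1 table of gene-level FPKM values for 9 libraries of polyadenylated RNA. Reads were processed with TopHat2 and Cuffdiff on mm9, per the submitters' processing notes, with versions, annotation and strandedness not given in the sources used here. No header states the unit, and FPKM was taken from the tools and from low values that rise in steps of whole fragments. Those steps gave the depths, with 60.8% to 74.2% of values within 0.15 fragments of a whole number. Of 23277 rows, 4746 blank, 27 date-like and 168 small RNA rows were left out. Cuffdiff scales libraries against each other, estimates levels by likelihood and can list a failed estimate as 0. Genes with near-identical copies are uncertain, and so are antisense and overlapping genes.

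Ratios used log2(FPKM + 1), a pseudocount of 1, and genes at 1 FPKM or more in either library. The fit used limma 3.58.1 (trend) in R 4.3.3 on 4 libraries, with Benjamini-Hochberg adjustment at 0.05, and was tested on simulated data. Figures and counts used Python 3.11.15. The p-values cover the spread among these libraries only, which may be technical. The genes, the 43 lists and the tests were chosen with earlier results of these data known. Genes were named by rule: the 15 highest and 15 lowest ratios at 5 FPKM or more, the 10 largest FPKM gains and losses, up to 6 members per list, the core, naive and streak lists, Yap1 and Wwtr1. Some of these are not reported here. All others were chosen after their values were seen, including the gene families and those in the scatter and library plots that the rule does not name. Promoters come from RefSeq (GRCm38.p6), another build than mm9. Alternatives changed the pseudocount, filter, scaling, control library, GC trend and rows kept.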

Additional observations from a re-analysis of the deposited data

How the results depend on the processing

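Each state rests on 1 library, the spread comes from controls of other experiments, and levels near 1 FPKM rest on few fragments. The 1590 higher and 1214 lower genes were 739 and 419 with a pseudocount of 5. The lower genes were 806 with a filter at 5 FPKM and 794 with ESC as the control. The other settings moved neither count by over 1.5 times: a pseudocount of 0.1, no filter, small RNA rows kept, genes listed at 0 left out, ratios centred on their median, BirA or the mean of the controls in the place of Control, the GC trend removed, and transcripts of 1000 nt or more only, the last chosen after seeing the data. By limma with Benjamini-Hochberg adjustment, leaving out 1 control at a time gave 635 to 1991 higher genes (1426 with all) and 252 to 1431 lower genes (842 with all), and without a filter 359 genes were lower, so that 78.2% of calls were higher against 62.9%. With ESC as the control, log2 ratios changed sign for Myc (-0.41), Arid1a (-0.16) and Tfrc (0.24), and the median of the 3 Hox genes became 0.20. The cause was not tested. Across 263 named genes and 4 settings each, 889 ratios kept their side of the 2-fold line with little shift, 71 moved, 68 dropped under the line and 21 rose over it. Log2 ratios followed transcript GC content at rho = 0.265 and length at 0.167 over 8450 genes; for Control over ESC rho was -0.316 and -0.151. No paired analysis was possible because each group has 1 library and the labels give no replicate numbers.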

Other observations

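Genes of the respiratory chain, grouped by symbol after the values were seen, lay mostly below Control. BirA and ESC were not compared for these families. Over all genes compared, 9.85% were at least 2-fold lower and the median log2 ratio was 0.04, and the share below 0 was not counted. The 2-fold calls among Nduf genes were near the share of all genes. Of 35 Nduf genes (complex I) 31 had a log2 ratio below 0 and 4 were at least 2-fold lower, with a median of -0.42, and their summed level was 7043 FPKM in Control and 5008 FPKM in dESC_control. All 8 Uqcr genes (complex III) were below 0, with 0 past 2-fold and a median of -0.61. Of 23 genes with Cox symbols (complex IV) 22 were below 0 and 6 were at least 2-fold lower, with a median of -0.57. That symbol rule can also take in assembly factors of complex IV, so the group is not limited to its subunits. Of 16 Atp5 genes (ATP synthase) 14 were below 0, with a median of -0.50. The 75 cytoplasmic ribosomal protein genes had a median of -0.18, with 48 below 0. Many of these transcripts are short, and the effect of transcript length on these families was not tested.

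Across the table, 110 genes stood under 1 FPKM in BirA, ESC and Control and at 5 FPKM or more in dESC_control, and 31 stood at 5 FPKM or more in all 3 and under 1 FPKM in dESC_control, a count that includes Tpm3, which was listed at 0. Claudins, the tight junction proteins, were also grouped after the values were seen: 5 of 10 were at least 2-fold higher and 1 lower, and their sum was 185.1 FPKM in Control and 682.4 FPKM in dESC_control.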
